A study of Equus caballus with 9 samples.

Results

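The genes described here encode 10 surface proteins used to recognise mesenchymal stromal cells: NT5E (CD73), THY1 (CD90), ENG (CD105), CD44, ALCAM (CD166), MCAM (CD146), VCAM1 (CD106), LEPR, NGFR and CSPG4 (NG2). They were picked by name from the platform's gene symbols, and each of the 10 had a single probe set that named it and no other gene, among 16661 genes named this way on 30559 probe sets. Their RNA was compared in 9 Affymetrix arrays of plastic-adherent horse cells, 3 per group. EA-ADSC were cultured from mononuclear cells in blood that 3 horses gave 2 h after electroacupuncture, a treatment that runs current between acupuncture needles. AD-MSC were grown from tailhead fat, and BM-MSC from bone marrow, of horses given no treatment. The groups shared Ficoll-Paque isolation and 96 h on plastic in Ham's F-12 with low-glucose DMEM and 15% fetal bovine serum, and only attached cells were kept. Amplification started from 100 ng of RNA. No blood cells from untreated horses are among these samples, so that tissue, treatment and horse change together between EA-ADSC and either control group. The labels give no array batch, so that a batch of its own for any group, AD-MSC included, cannot be told apart from the group in any comparison. The labels name 3 different horses for each of the EA-ADSC and BM-MSC groups and no horse for AD-MSC, where the p-values measure only the spread between the samples.

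Stromal cells of marrow, fat and other tissues have no single defining surface protein, and are recognised by a panel. NT5E, THY1 and ENG are the markers asked for by the minimal criteria for human mesenchymal stromal cells, which also ask that leukocyte proteins be absent. CD44, ALCAM, MCAM and VCAM1 hold cells to matrix or to each other, and MCAM, VCAM1, LEPR, NGFR and CSPG4 have been used to pick out perivascular or colony-forming stromal cells in tissue. In horse cells such panels are harder to apply to protein because many human antibodies do not recognise the horse protein, and RNA does not measure the protein on the surface.

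All values are normalised log2 intensities as deposited, so 1 unit is a 2-fold difference, and levels of different genes are not compared because probe sets differ in brightness. Adjusted p-values come from limma, fitted to all 9 arrays and adjusted over all 30559 probe sets by the Benjamini-Hochberg method, with a threshold of 0.05. Means are given ± SD with n = 3 arrays per group. The median of all values was 4.62, and how far a probe set below it lies above background could not be judged. The array medians ran from 4.56 to 4.66. Arrays correlated over all probe sets at 0.961 to 0.982 within groups and at 0.936 to 0.965 between them, where probe sets are no replicates. The small number of arrays limits the precision. In cultures analysed as a whole, fewer cells of a type and less RNA per cell cannot be told apart.

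The cultures were first set against marker lists of the cell types they could hold. Of 10 fibroblast genes, 9 or 10 lay above the median of all values on every EA-ADSC array and 10 on every AD-MSC and BM-MSC array. The log2 of their summed intensity was 14.49 to 14.69 in EA-ADSC, 14.51 to 14.66 in AD-MSC and 14.89 to 14.93 in BM-MSC. The leukocyte list, 13 of 14 genes measured, reached a log2 sum of 8.52 to 9.10 in EA-ADSC, 9.51 to 11.53 in AD-MSC and 9.48 to 10.57 in BM-MSC. PTPRC, the pan-leukocyte phosphatase CD45, averaged 3.10 ± 0.10 in EA-ADSC, 3.14 ± 0.51 in AD-MSC and 3.97 ± 0.57 in BM-MSC, below the median of all values in each group. Some other genes of the leukocyte list lay above that median, 3 to 5 of the 13 on EA-ADSC arrays, 5 or 6 on AD-MSC arrays and 7 on BM-MSC arrays. The macrophage gene CD68 averaged 7.58 ± 0.70 in EA-ADSC, 9.96 ± 1.32 in AD-MSC and 8.54 ± 0.43 in BM-MSC, with no call. Bright genes weigh most in the sum of the list, and CD68 ran from 8.72 to 11.34 in AD-MSC. Counted without regard to calls, the difference of AD-MSC from BM-MSC was negative for 10 of the 13 genes and positive for 3 (median -0.40). FCER1G, an Fc receptor signalling chain, was the 1 gene of the list called in either EA-ADSC comparison. It averaged 3.93 ± 0.49 in EA-ADSC, lower than 6.58 ± 0.42 in AD-MSC (adjusted p = 0.0193) and 7.53 ± 1.09 in BM-MSC (adjusted p = 0.0206), and these calls were lost in 4 (up to 0.068) and 3 (up to 0.0833) of the 9 fits without 1 array. Between AD-MSC and BM-MSC 2 were called lower. The call of the signalling adaptor TYROBP (4.53 ± 0.06 against 7.01 ± 0.98, adjusted p = 0.0132) was kept in all 9 fits. That of the actin regulator CORO1A (5.38 ± 0.25 against 6.18 ± 0.25) was kept in 3 of the 9 (adjusted p up to 0.107). The part of leukocyte genes in the marker differences was not tested. The endothelial list had log2 sums of 7.53 to 7.72, 7.77 to 8.16 and 7.27 to 7.32 in EA-ADSC, AD-MSC and BM-MSC, and the junction gene PECAM1 averaged 3.53 ± 0.42, 3.29 ± 0.02 and 3.11 ± 0.20. FLT1, a VEGF receptor on that list, was higher in AD-MSC, at 4.72 ± 0.41 in EA-ADSC, 6.63 ± 0.55 in AD-MSC and 4.23 ± 0.28 in BM-MSC. It was called for EA-ADSC against AD-MSC (adjusted p = 0.00914) and AD-MSC against BM-MSC (adjusted p = 0.00356), in all 9 fits without 1 array. The Schwann and neural crest list, 6 of 9 genes measured, had log2 sums of 7.14 to 7.92 in EA-ADSC, 7.05 to 7.19 in AD-MSC and 7.40 to 7.90 in BM-MSC. No gene is given as 0 on this scale, so absence of a marker cannot be read from it. The fibroblast genes were not at the same level in the 3 groups. In EA-ADSC 1 of the 10 was lower than in BM-MSC and none higher (median difference -0.26). It was FAP, a surface protease of activated fibroblasts, at 6.09 ± 0.36 in EA-ADSC against 10.86 ± 0.31 in BM-MSC (27.3-fold lower, adjusted p = 0.0075), a call kept in all 9 fits without 1 array. In EA-ADSC 4 were higher and 2 lower than in AD-MSC (median 0.22), the lower ones being FAP (8.77 ± 1.22 in AD-MSC, adjusted p = 0.0207) and the growth factor receptor gene PDGFRA (5.66 ± 1.09 against 8.15 ± 0.17, adjusted p = 0.0143). The FAP call was lost in 4 of the 9 fits without 1 array (up to 0.0706) and the PDGFRA call without AD-MSC replicate 3 (0.0521). The higher ones were the collagen genes COL1A1, COL1A2 and COL3A1 and the fibronectin gene FN1. Their log2 differences were 2.50, 2.71, 2.69 and 4.07, and these calls were kept in all 9 fits. In AD-MSC 5 were lower than in BM-MSC, among them COL1A1, COL1A2, COL3A1 and FN1, and none passed as higher (median -1.50). The part of these genes in the marker differences was not tested.

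By limma's moderated F test over the 3 groups, 6 of the 10 markers differed, against 7.48% of all probe sets. These were NT5E, THY1, ENG, CD44, ALCAM and VCAM1. MCAM, LEPR, NGFR and CSPG4 did not pass. The markers were chosen with earlier results of these data known. The shares of all probe sets are therefore set beside the counts as a description only. Between EA-ADSC and BM-MSC 2 markers passed limma's pairwise test, CD44 and ALCAM, both higher in EA-ADSC, against 0.815% of all probe sets in either direction, 0.35% higher and 0.465% lower. Between EA-ADSC and AD-MSC 3 passed, THY1, ENG and ALCAM, all higher in EA-ADSC, against 6.92% of all probe sets, 3.49% higher and 3.43% lower. Between AD-MSC and BM-MSC 3 passed, CD44 higher in AD-MSC and NT5E and ENG lower, against 6.08%, 2.83% higher and 3.25% lower. All probe sets include 13427 without a gene symbol. In a fit to the 16661 named genes alone, 15.2% passed the F test, with 6 markers. The pairwise shares, in the order above, were then 2.93%, 12.8% and 12%, with 4, 3 and 4 markers. The median difference over the 10 markers was 0.12, 0.20 and -0.25 in these comparisons, and 0.01, -0.02 and 0.04 over all probe sets. ALCAM was the 1 marker with a call for EA-ADSC against both control groups, and those comparisons share the EA-ADSC arrays. Where the arrays of a pair of groups did not overlap, this held for 4, 3 and 5 of the 10 markers, against 18.4%, 23.5% and 25.6% of all probe sets.

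**Figure D1:**
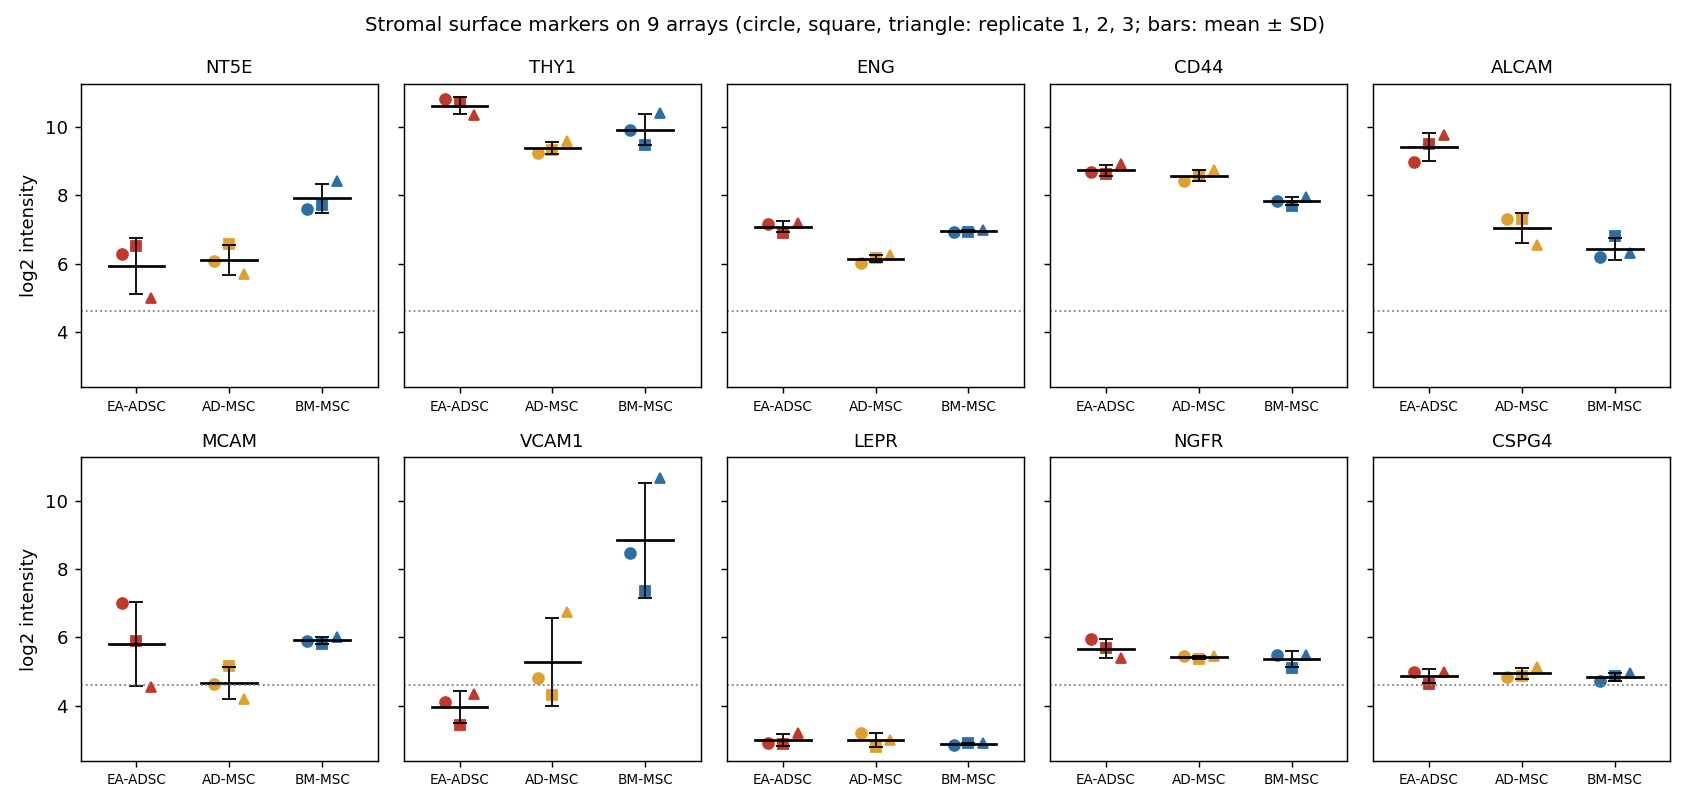
Log2 intensity (vertical axis) of the 10 markers on each array, by group (horizontal axis). Circles, squares and triangles are replicates 1, 2 and 3, black bars the mean and SD, and the dotted line the median of all values at 4.62. The 3 ALCAM values of EA-ADSC stand above the 6 others, the 3 VCAM1 values of BM-MSC above the 6 others, and LEPR lies below the dotted line on all 9 arrays.

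**Figure D2:**
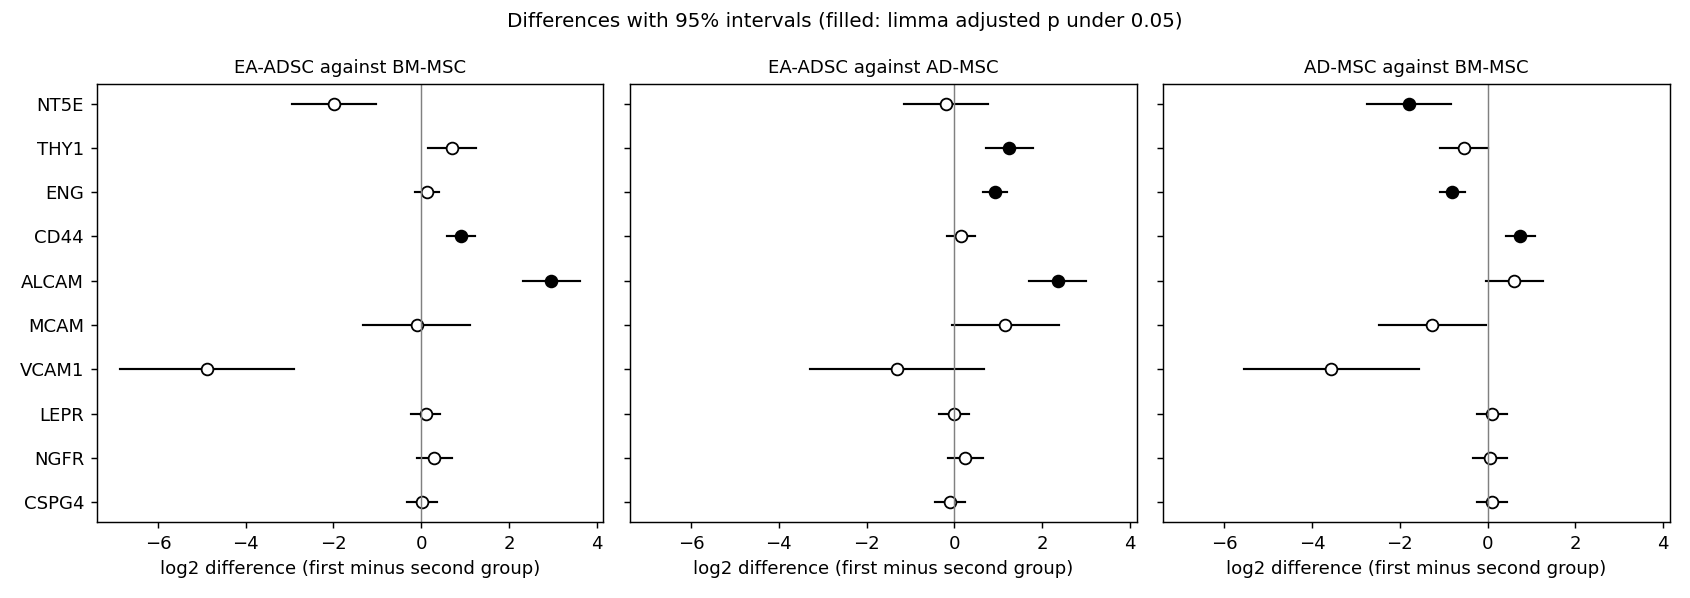
Log2 differences (horizontal axis, first minus second group) of the 10 markers in the 3 comparisons, with 95% intervals that are not adjusted for the number of probe sets tested. Filled points have a limma adjusted p under 0.05. The intervals of MCAM and VCAM1 are the widest, and those of ENG and CD44 the narrowest.

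NT5E, the ecto-5'-nucleotidase that turns extracellular AMP into adenosine, had its highest level in bone marrow cells. Its values were 6.27, 6.51 and 4.99 in EA-ADSC replicates 1 to 3. The AD-MSC arrays read 6.08, 6.57 and 5.70, and the BM-MSC arrays 7.60, 7.72 and 8.41. The BM-MSC arrays thus lay above all the others, with a gap of 1.03 to the nearest AD-MSC value, while EA-ADSC and AD-MSC overlapped. AD-MSC fell below BM-MSC by 1.79 on the log2 scale (SE 0.42, 6.12 ± 0.43 against 7.91 ± 0.43, 3.47-fold, adjusted p = 0.0425). This call was lost when limma was refitted without any 1 of the AD-MSC or BM-MSC arrays (adjusted p = 0.0526 to 0.134) or without EA-ADSC replicate 1 (0.057), and also with array weights (0.0513). EA-ADSC were at 5.92 ± 0.82, a difference of -1.99 from BM-MSC (SE 0.42, 95% interval -2.94 to -1.04, adjusted p = 0.0802), which missed the threshold. It passed in 4 of 11 other settings, with dim probe sets left out (0.0452), with array weights (0.0385), with a gene's probe sets averaged (0.0363) and with 1 probe set per gene (0.0365). EA-ADSC and AD-MSC differed by -0.20, with an interval of -1.15 to 0.76.

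**Figure D3:**
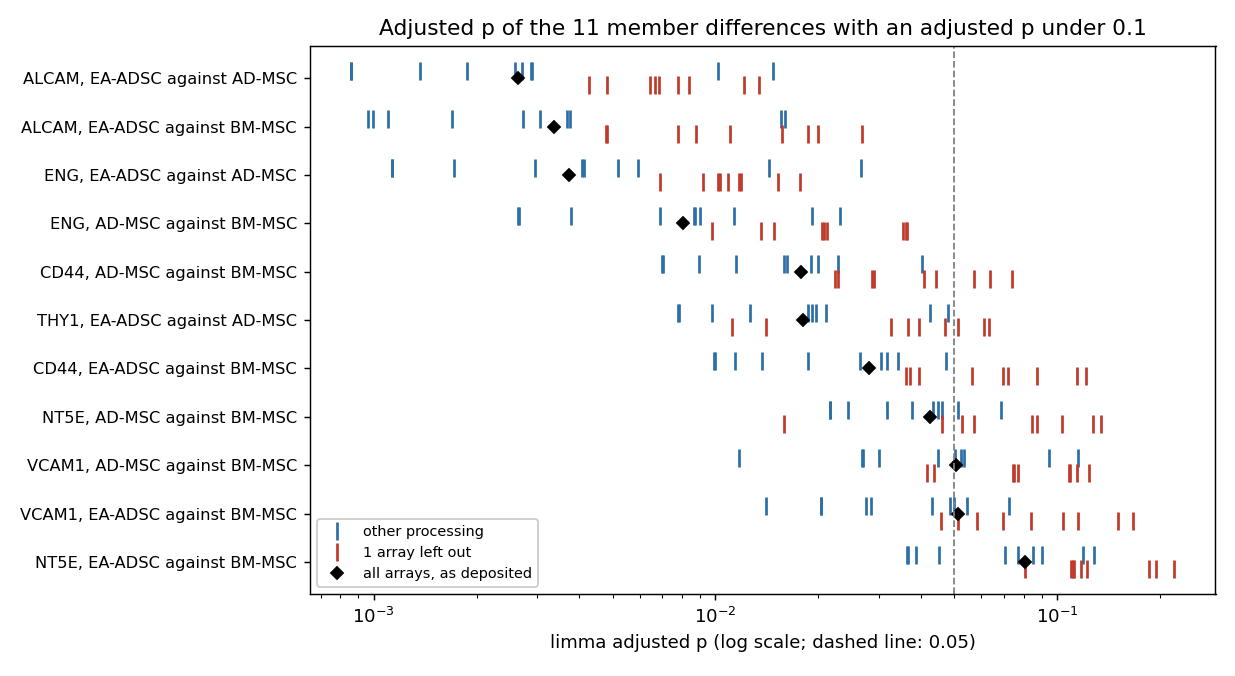
Limma adjusted p (horizontal axis, log scale) of the 11 marker differences under 0.1. Diamonds show all arrays as deposited, blue ticks the other processing choices without the 2-fold criterion, and red ticks the fits without 1 array. ALCAM in both EA-ADSC comparisons and ENG in both AD-MSC comparisons stay left of the dashed line at 0.05 throughout, while NT5E, THY1, CD44 and VCAM1 cross it.

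In the adenosine pathway around NT5E 11 of 12 listed genes were measured. Between EA-ADSC and BM-MSC 1 was higher and 1 lower, with a median difference of 0.03. ADORA2B, an adenosine receptor, read 8.48, 8.13 and 7.99 in EA-ADSC, above 6.57, 6.04 and 6.61 in BM-MSC (3.47-fold, adjusted p = 0.0325). SLC29A1, a nucleoside transporter that takes adenosine into cells, fell by 2.50 on the log2 scale in EA-ADSC (6.02 ± 0.66 against 8.52 ± 0.04, adjusted p = 0.0398). Leaving out any 1 of the 6 EA-ADSC and BM-MSC arrays ended both calls, and for SLC29A1 leaving out AD-MSC replicate 1 did too (adjusted p up to 0.124 for ADORA2B and 0.149 for SLC29A1). Against AD-MSC 1 gene of the list was higher in EA-ADSC and 2 lower, with a median of 0.17. ADORA2B (8.20 ± 0.25 against 6.63 ± 0.54, adjusted p = 0.0153) lost this call without EA-ADSC replicate 1 (0.052), and SLC29A1 (6.02 ± 0.66 against 7.89 ± 0.79, adjusted p = 0.0341) in 7 of the 9 fits without 1 array (up to 0.101). ADK, the kinase that returns adenosine to AMP, was lower in EA-ADSC than in AD-MSC (8.47 ± 0.12 against 9.43 ± 0.09, adjusted p = 0.0026). It was the 1 gene of the list called between AD-MSC and BM-MSC, higher in AD-MSC (9.43 ± 0.09 against 8.68 ± 0.06, adjusted p = 0.00808), and neither ADK call was lost without any 1 array.

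THY1, a small glycoprotein anchored to the membrane by lipid that binds integrins, read 10.81, 10.72 and 10.36 in EA-ADSC. The AD-MSC arrays read 9.24, 9.33 and 9.58, all below every EA-ADSC array, and the BM-MSC arrays 9.90, 9.48 and 10.40, overlapping AD-MSC at the low end and EA-ADSC at the high end. THY1 was 2.37-fold higher in EA-ADSC than in AD-MSC (10.63 ± 0.24 against 9.38 ± 0.17, log2 difference 1.25, SE 0.24, adjusted p = 0.018). The call was lost without EA-ADSC replicate 1 (0.0612) or 2 (0.063) or AD-MSC replicate 1 (0.0514). Against BM-MSC, at 9.93 ± 0.46, the difference of EA-ADSC was 0.70 with an interval of 0.16 to 1.25 (adjusted p = 0.273). AD-MSC were at -0.54 relative to BM-MSC (adjusted p = 0.236). The order of the means was therefore EA-ADSC, BM-MSC, AD-MSC, and neither pair of neighbours in it passed the test.

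ENG, a co-receptor for ligands of the TGF-beta and BMP families, was lower in fat-derived cells. It read 7.15, 6.90 and 7.19 in EA-ADSC, 6.03, 6.17 and 6.24 in AD-MSC, and 6.94, 6.93 and 6.98 in BM-MSC. No AD-MSC array came within 0.66 of an array of another group, and EA-ADSC and BM-MSC overlapped. ENG was 1.91-fold higher in EA-ADSC than in AD-MSC (7.08 ± 0.16 against 6.15 ± 0.11, log2 difference 0.93, SE 0.12, adjusted p = 0.00374). In AD-MSC it fell by 0.80 on the log2 scale relative to BM-MSC (6.15 ± 0.11 against 6.95 ± 0.03, SE 0.12, adjusted p = 0.00801). Both calls held in all 9 fits without 1 array, with adjusted p up to 0.0177 and 0.0363. EA-ADSC and BM-MSC differed by 0.13, with an interval of -0.15 to 0.41 (adjusted p = 0.802). Neither difference reached 2-fold.

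Of the 23 genes listed around endoglin signalling 22 were measured. None passed between EA-ADSC and BM-MSC with limma, where 5 had an unadjusted p under 0.05 and the median difference was 0.02. Between EA-ADSC and AD-MSC 2 were higher and 2 lower, with a median of 0.14. TGFB3, a ligand that ENG helps to bind, read 7.23, 8.03 and 7.81 in EA-ADSC and 3.99, 4.08 and 4.35 in AD-MSC (11.7-fold, adjusted p = 2.72e-04). TGFBR2, the type II receptor that binds TGF-beta, went the other way, at 4.94 ± 0.32 in EA-ADSC against 6.97 ± 0.14 in AD-MSC (4.09-fold lower, adjusted p = 0.00127). Also different were TGFB1 (7.61 ± 0.45 against 5.83 ± 0.40) and the co-receptor TGFBR3 (4.53 ± 0.11 against 6.10 ± 0.60). These 4 calls held in all 9 fits without 1 array. Between AD-MSC and BM-MSC 2 of the list were higher and 2 lower, with a median of -0.11, and TGFB3 was again 11.7-fold lower in AD-MSC (4.14 ± 0.19 against 7.69 ± 0.43, adjusted p = 3.12e-04).

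CD44, the main receptor for hyaluronan, was higher in EA-ADSC and in AD-MSC than in BM-MSC. Its values were 8.67, 8.62 and 8.91 in EA-ADSC, 8.43, 8.56 and 8.74 in AD-MSC, and 7.85, 7.70 and 7.94 in BM-MSC. All 3 BM-MSC arrays lay below the 6 others. EA-ADSC were 1.87-fold higher than BM-MSC (8.73 ± 0.16 against 7.83 ± 0.12, log2 difference 0.90, SE 0.14, adjusted p = 0.0282), and the call ended when any 1 of these 6 arrays was left out (0.0562 to 0.121). AD-MSC were 1.68-fold higher than BM-MSC (8.58 ± 0.16 against 7.83 ± 0.12, log2 difference 0.75, SE 0.14, adjusted p = 0.0178), a call lost without BM-MSC replicate 1 (0.0637) or 2 (0.0737) or AD-MSC replicate 3 (0.0571). The difference between EA-ADSC and AD-MSC was 0.15, with an interval of -0.16 to 0.47 (adjusted p = 0.586).

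Of 21 listed hyaluronan genes and CD44 partners 17 were measured. None passed between EA-ADSC and BM-MSC with limma, where 4 had an unadjusted p under 0.05 and the median was -0.11. Between EA-ADSC and AD-MSC 4 were higher and none lower, with a median of 0.16, and 8 had an unadjusted p under 0.05. HAS2, a hyaluronan synthase, read 6.25, 9.44 and 8.89 in EA-ADSC and 4.08, 4.58 and 4.33 in AD-MSC (14.6-fold on means of 8.19 ± 1.70 and 4.33 ± 0.25, adjusted p = 0.0151). It lost this call without EA-ADSC replicate 3 (0.0546). VCAN, a proteoglycan that binds hyaluronan, was 11.9-fold higher in EA-ADSC than in AD-MSC (11.35 ± 0.15 against 7.78 ± 0.34, adjusted p = 6.25e-05). Between AD-MSC and BM-MSC none was higher and 5 were lower, with a median of 0.00. HAS2 was 25.1-fold lower in AD-MSC (4.33 ± 0.25 against 8.98 ± 0.31, adjusted p = 0.00764) and VCAN 9.44-fold lower (7.78 ± 0.34 against 11.02 ± 0.10, adjusted p = 8.63e-05). HAS2 and VCAN were thus lowest in AD-MSC, and CD44 in BM-MSC. VCAN has 2 probe sets, of which the brighter was used.

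ALCAM, an adhesion molecule of the immunoglobulin superfamily that binds CD6 and itself, was higher in EA-ADSC than in both control groups. It read 8.98, 9.49 and 9.77 in EA-ADSC, 7.31, 7.31 and 6.54 in AD-MSC, and 6.21, 6.81 and 6.31 in BM-MSC. The lowest EA-ADSC value was 1.67 above the highest AD-MSC value and 2.17 above the highest BM-MSC value, while AD-MSC and BM-MSC overlapped. EA-ADSC were 5.14-fold higher than AD-MSC (9.42 ± 0.40 against 7.05 ± 0.44, log2 difference 2.36, SE 0.29, adjusted p = 0.00265). Against BM-MSC they were 7.86-fold higher (9.42 ± 0.40 against 6.44 ± 0.32, log2 difference 2.97, SE 0.29, adjusted p = 0.00336). Both calls held in each of the 9 fits without 1 array, where the differences ran from 2.10 to 2.58 and from 2.80 to 3.19, and under the 11 other settings. AD-MSC were 0.61 above BM-MSC with an interval of -0.04 to 1.27 (adjusted p = 0.267).

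MCAM, an adhesion molecule of pericytes and endothelial cells that is also used to enrich stromal progenitors, varied more between the EA-ADSC arrays than any of the 9 other markers. It read 7.00, 5.91 and 4.54 in EA-ADSC replicates 1 to 3, 4.63, 5.15 and 4.20 in AD-MSC, and 5.91, 5.82 and 6.01 in BM-MSC. The EA-ADSC values overlapped those of both other groups, and the BM-MSC values lay within 0.19 of each other. EA-ADSC differed from BM-MSC by -0.10 with an interval of -1.32 to 1.12 (adjusted p = 0.98). From AD-MSC they differed by 1.16 (-0.06 to 2.38, adjusted p = 0.26), and this difference was 1.80 and passed without EA-ADSC replicate 3 (0.0406). AD-MSC and BM-MSC did not overlap, with a difference of -1.26 (-2.48 to -0.04, adjusted p = 0.224) that passed when these 2 groups were fitted alone (0.0491).

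Mural and pericyte genes, all 14 of them measured, were read beside MCAM and CSPG4. Between EA-ADSC and BM-MSC 1 was higher and none lower, with a median of -0.04. It was DES, the muscle intermediate filament, at 9.03 ± 0.86 against 5.38 ± 0.31 (12.6-fold, adjusted p = 0.0048). Between EA-ADSC and AD-MSC 5 were higher and none lower, with a median of 0.16, and between AD-MSC and BM-MSC none was higher and 4 were lower, with a median of -0.43. The contractile genes ACTG2, TAGLN and CNN1 were among those lower in AD-MSC in both of these comparisons. TAGLN, an actin-binding protein, averaged 11.42 ± 0.20 in EA-ADSC, 6.63 ± 1.03 in AD-MSC and 11.62 ± 0.13 in BM-MSC. The log2 sum of the list was 14.03 to 14.12 in EA-ADSC, 9.30 to 11.46 in AD-MSC and 13.85 to 14.10 in BM-MSC. Bright genes such as ACTA2 weigh most in that sum. Of the 14 genes, 9 or 10 lay above the median of all values on EA-ADSC arrays and 10 to 12 on the others. The pericyte genes PDGFRB, RGS5, ABCC9, KCNJ8, NOTCH3 and HEYL had no call. PDGFRB averaged 5.06 ± 0.09 in EA-ADSC, 4.98 ± 0.06 in AD-MSC and 5.06 ± 0.13 in BM-MSC. NOTCH3 averaged 5.11 ± 0.06, 5.33 ± 0.23 and 5.05 ± 0.18. MCAM was lowest in AD-MSC too, without passing the test, and the part of mural genes in its level was not tested.

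VCAM1, the receptor for the integrin ITGA4 with ITGB1, had the widest range of the 10 markers. It read 4.12, 3.44 and 4.35 in EA-ADSC, 4.80, 4.30 and 6.74 in AD-MSC, and 8.48, 7.36 and 10.68 in BM-MSC. Every BM-MSC array lay above every other array, and in all 3 groups replicate 3 was the highest and replicate 2 the lowest. The pooled SD within groups was 1.26, larger than for 99.5% of all probe sets. EA-ADSC were at 3.97 ± 0.47 against 8.84 ± 1.69 in BM-MSC, a difference of -4.88 (SE 0.87, interval -6.87 to -2.89, adjusted p = 0.0513). AD-MSC, at 5.28 ± 1.29, were at -3.56 relative to BM-MSC (interval -5.55 to -1.57, adjusted p = 0.0506). Neither passed the threshold, although the F test did (adjusted p = 0.0247). EA-ADSC and AD-MSC differed by -1.31, with an interval of -3.30 to 0.68. Because all EA-ADSC values lie below 4.62, the size of the difference holds for the deposited values only.

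The VCAM1 calls turned on the setting and on single arrays. The difference between EA-ADSC and BM-MSC passed in 8 of 11 other settings, among them quantile normalisation (0.0498), and it was -4.88 and passed without AD-MSC replicate 3 (0.0458). Without BM-MSC replicate 3 it was -3.96 (adjusted p = 0.0839). The difference between AD-MSC and BM-MSC was -4.30 and passed without BM-MSC replicate 2 (0.0436) or AD-MSC replicate 3 (0.0417), and was -2.64 without BM-MSC replicate 3 (0.108). With all arrays it passed in 5 of the 11 other settings, among them limma-trend (0.0449) and dim probe sets left out (0.0301). The same BM-MSC replicate 3 also held the highest values of the antigen-presentation genes DRA and CD74. DRA read 4.39, 4.79 and 4.03 in EA-ADSC, 3.82, 3.85 and 4.81 in AD-MSC, and 7.07, 5.38 and 10.92 in BM-MSC. CD74 read 5.74, 5.42 and 9.81 in BM-MSC replicates 1 to 3. PTPRC was highest on that array too, at 4.51, which is below the median of all values. The log2 sum of the leukocyte list was 10.57, 9.48 and 9.90 in BM-MSC replicates 1 to 3, and the median of its genes 5.34, 4.66 and 5.68. The part of these genes in the VCAM1 difference was not tested.

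VCAM1's binding partner chain ITGA4 was also highest in BM-MSC. It read 8.75, 7.67 and 7.12 in EA-ADSC, 4.55, 7.20 and 4.36 in AD-MSC, and 9.67, 9.59 and 10.04 in BM-MSC. AD-MSC were 21.1-fold lower than BM-MSC (5.37 ± 1.59 against 9.77 ± 0.24, adjusted p = 0.0112), and the call held in all 9 fits without 1 array. Between EA-ADSC and BM-MSC the difference was -1.92 (adjusted p = 0.339). Among the 19 genes listed for immunoglobulin-type adhesion and its ligands, all measured, none passed between EA-ADSC and BM-MSC with limma (4 at an unadjusted p under 0.05, median -0.13). In EA-ADSC 1 was higher and 2 lower than in AD-MSC (median -0.04), and in AD-MSC 1 was higher and 1 lower than in BM-MSC (median -0.10). The 1 that was higher in EA-ADSC was LAMA4, a laminin chain of vessel walls that binds MCAM, at 8.32 ± 1.00 against 5.10 ± 0.84 in AD-MSC (9.30-fold, adjusted p = 0.0114). The 2 lower ones were LGALS3 (adjusted p = 0.00392) and the integrin chain gene ITGA9 (4.65 ± 0.39 against 5.79 ± 0.27, adjusted p = 0.0171).

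LEPR, the leptin receptor, marks stromal cells around marrow sinusoids in the mouse. On these arrays it read 2.91, 2.87 and 3.21 in EA-ADSC, 3.21, 2.79 and 3.01 in AD-MSC, and 2.86, 2.91 and 2.91 in BM-MSC. All 9 values lay below the median of all values, and the groups overlapped. EA-ADSC differed from BM-MSC by 0.11 (interval -0.23 to 0.44) and from AD-MSC by 0.00 (-0.34 to 0.33), and AD-MSC differed from BM-MSC by 0.11 (-0.23 to 0.44). The adjusted p-values were 0.89, 0.994 and 0.731. Of the 11 genes listed for leptin signalling, 1 was called in 1 comparison. STAT3, the transcription factor that the receptor activates, fell by 0.83 on the log2 scale in EA-ADSC (5.64 ± 0.12 against 6.47 ± 0.03 in BM-MSC, adjusted p = 0.0162), and lost the call in 5 of the 9 fits without 1 array (up to 0.0791). The list had no call between EA-ADSC and AD-MSC or between AD-MSC and BM-MSC with limma, where 4 and 5 genes had an unadjusted p under 0.05. Its median differences were -0.06, 0.19 and -0.26 for EA-ADSC against BM-MSC, EA-ADSC against AD-MSC and AD-MSC against BM-MSC.

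Other genes of LEPR-positive marrow stroma were measured for 9 of 11. KITLG, the ligand of the KIT receptor that these cells supply to blood stem cells in the mouse, read 6.03, 6.56 and 5.18 in EA-ADSC, 5.35, 5.72 and 5.57 in AD-MSC, and 7.95, 7.76 and 8.27 in BM-MSC. It was called lower in EA-ADSC than in BM-MSC (4.20-fold, adjusted p = 0.0282), a call kept in 4 of the 9 fits without 1 array (up to 0.111). It was also lower in AD-MSC than in BM-MSC (5.46-fold, adjusted p = 0.00382), and this call was kept in all 9. The list held no other call between EA-ADSC and BM-MSC or between AD-MSC and BM-MSC, with median differences of 0.08 and 0.43. Between EA-ADSC and AD-MSC 1 gene was higher and 1 lower, with a median of 0.07.

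NGFR, the low-affinity neurotrophin receptor CD271, read 5.95, 5.68 and 5.39 in EA-ADSC, 5.45, 5.37 and 5.45 in AD-MSC, and 5.50, 5.11 and 5.50 in BM-MSC. The groups overlapped, with EA-ADSC replicates 1 and 2 the highest of the 9 arrays. The differences were 0.30 (interval -0.09 to 0.70) between EA-ADSC and BM-MSC, 0.25 (-0.14 to 0.65) between EA-ADSC and AD-MSC, and 0.05 (-0.34 to 0.45) between AD-MSC and BM-MSC, with adjusted p-values of 0.585, 0.458 and 0.904. A neurotrophin ligand differed where this receptor did not pass. BDNF read 9.68, 8.89 and 9.08 in EA-ADSC, 5.26, 5.72 and 5.01 in AD-MSC, and 6.17, 6.42 and 5.66 in BM-MSC. It was 14.7-fold higher in EA-ADSC than in AD-MSC (adjusted p = 2.43e-04) and 8.76-fold higher than in BM-MSC (adjusted p = 0.00233), and both calls held in all 9 fits without 1 array. It was the 1 call among 13 measured neurotrophin genes of 16 between EA-ADSC and BM-MSC, where the median was 0.02. The other call of the list was MAGED1, an adaptor that binds NGFR, which was lower in AD-MSC at 7.95 ± 0.28 than in either EA-ADSC (10.62 ± 0.13, adjusted p = 1.40e-04) or BM-MSC (10.43 ± 0.12, adjusted p = 1.91e-04).

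CSPG4, a membrane proteoglycan of pericytes that binds collagen VI, spanned 4.63 to 5.14 over the 9 arrays. It read 4.99, 4.63 and 4.98 in EA-ADSC, 4.83, 4.88 and 5.14 in AD-MSC, and 4.71, 4.87 and 4.96 in BM-MSC. The 3 groups overlapped. The differences were 0.02 (interval -0.33 to 0.36) between EA-ADSC and BM-MSC, -0.09 (-0.43 to 0.25) between EA-ADSC and AD-MSC, and 0.10 (-0.24 to 0.44) between AD-MSC and BM-MSC, with adjusted p-values of 0.99, 0.796 and 0.75. Among 11 measured partners of CSPG4 out of 12, none passed between EA-ADSC and BM-MSC with limma (5 at an unadjusted p under 0.05, median -0.07). In EA-ADSC 1 was higher and 1 lower than in AD-MSC (median 0.20), and in AD-MSC 1 was higher and 1 lower than in BM-MSC (median -0.05). FGF2, a growth factor that CSPG4 can bind, was 2.23-fold higher in EA-ADSC than in AD-MSC (8.18 ± 0.08 against 7.03 ± 0.31, adjusted p = 0.0119), and this held in all 9 fits without 1 array. From BM-MSC the difference of EA-ADSC in FGF2 was 1.01 (adjusted p = 0.064). That one passed in 4 of 11 other settings and in 1 of the 9 fits without 1 array. The gene lower in EA-ADSC than in AD-MSC was LGALS3 (9.73 ± 0.48 against 11.51 ± 0.25, 3.43-fold, adjusted p = 0.00392), also kept in all 9 fits. LGALS3 was also the 1 that was higher in AD-MSC than in BM-MSC (10.28 ± 0.06, adjusted p = 0.0206), a call kept in 5 of the 9 fits.

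A wider set of 30 stromal surface genes, 29 of them measured, had 2 higher and 2 lower in EA-ADSC than in BM-MSC, with a median of -0.02. Against AD-MSC 6 were higher and 1 lower in EA-ADSC, with a median of 0.35, and in AD-MSC 1 was higher and 6 lower than in BM-MSC, with a median of -0.36. CD9, a tetraspanin, followed the order of CD44 in part, at 10.18 ± 0.46 in EA-ADSC, 10.77 ± 0.36 in AD-MSC and 8.58 ± 0.25 in BM-MSC. It was called for AD-MSC against BM-MSC (adjusted p = 0.00308) and for EA-ADSC against BM-MSC (0.0411), and the second call was lost in 6 of the 9 fits without 1 array (up to 0.132). ITGB1, the integrin chain CD29, was lowest in AD-MSC as ENG and THY1 were. It averaged 10.09 ± 0.16 in EA-ADSC, 8.54 ± 0.10 in AD-MSC and 9.58 ± 0.27 in BM-MSC, with adjusted p-values of 0.0013 for EA-ADSC against AD-MSC and 0.00856 for AD-MSC against BM-MSC. TNFRSF12A, the receptor of the cytokine TWEAK, was called in all 3 comparisons, with 10.60 ± 0.16 in EA-ADSC, 8.58 ± 0.24 in AD-MSC and 9.37 ± 0.09 in BM-MSC. Its call for EA-ADSC against BM-MSC was lost without BM-MSC replicate 1 or 2 (up to 0.0638) and that for AD-MSC against BM-MSC without any 1 BM-MSC array (up to 0.0803).

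Of the 12 genes of leukocyte and antigen-presentation proteins that the minimal criteria exclude, 8 were measured, and none passed in EA-ADSC against BM-MSC or AD-MSC with limma. At an unadjusted p under 0.05 there were 3 and 1, and the median differences were -0.55 and -0.03. Between AD-MSC and BM-MSC 1 was lower and the median was -0.52. It was CD86, a costimulatory protein, at 2.63 ± 0.02 against 3.57 ± 0.42 (adjusted p = 0.029), and the call was kept in 3 of the 9 fits without 1 array (up to 0.0828). CD34 averaged 4.28 ± 0.04 in EA-ADSC, 5.13 ± 0.61 in AD-MSC and 4.20 ± 0.29 in BM-MSC, with no call.

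**Figure D4:**
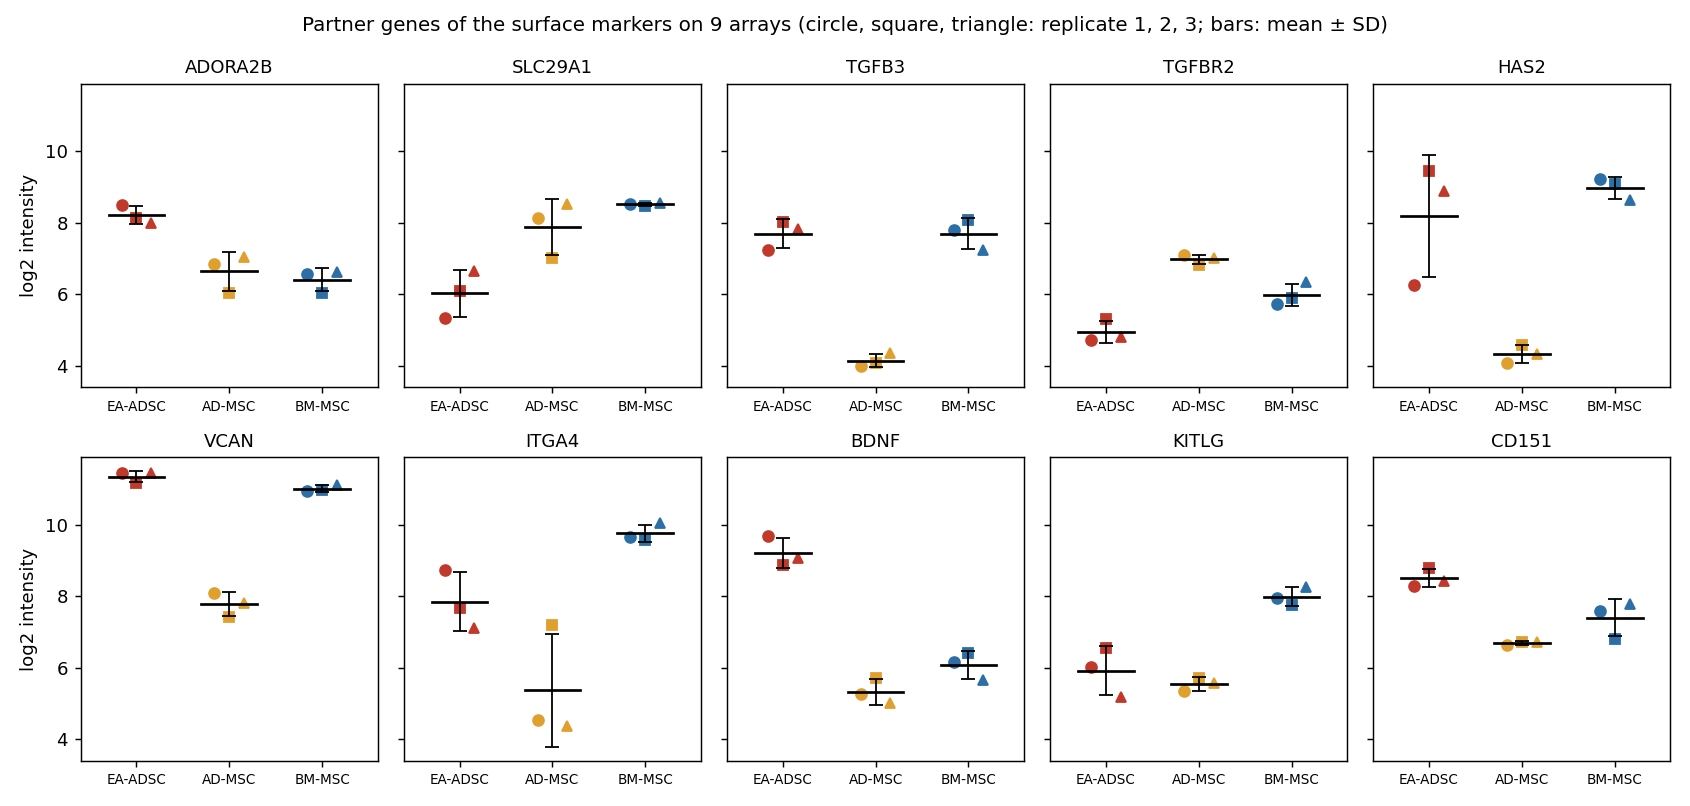
Log2 intensity (vertical axis) of 10 partner genes on each array, by group (horizontal axis). Circles, squares and triangles are replicates 1, 2 and 3, and bars show the mean and SD. ADORA2B and BDNF are highest on the 3 EA-ADSC arrays, TGFB3, HAS2 and VCAN lowest on the 3 AD-MSC arrays, and ITGA4 and KITLG highest on the 3 BM-MSC arrays.

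For the 6 markers that passed the F test, the genes with the most similar profile over the 9 arrays were looked up among the 16661 named genes, as a description, since 9 arrays in 3 groups give many genes a similar profile. ALCAM was followed most closely by the drug transporter gene ABCB1 (Pearson r = 0.981), which averaged 7.42 in EA-ADSC, 4.98 in AD-MSC and 4.16 in BM-MSC, and then by ATP2C1 (0.969) and HMCN1 (0.964). ENG was nearest to FBXW2 (0.991), TCF25 (0.981) and PAPSS2 (0.979). The last, a sulphate-donor synthase, averaged 7.94 in EA-ADSC, 4.47 in AD-MSC and 7.85 in BM-MSC. THY1 was nearest to the tetraspanin CD151 (0.950), also in the wider surface set, at 8.50 ± 0.26 in EA-ADSC, 6.70 ± 0.05 in AD-MSC and 7.40 in BM-MSC. MYH9 (0.945) and SAMD14 (0.935) came next. NT5E was nearest to the ceruloplasmin gene CP (0.969), KITLG (0.944) and MRPL18 (0.942), and CD44 to MRPS6 (0.970), ACKR4 (0.948) and ITPRIPL1 (0.946). VCAM1 was nearest to the interferon receptor chain IFNAR2 (0.955), the leukocyte actin regulator CORO1A (0.945) and the complement inhibitor CFI (0.944). CORO1A is on the leukocyte list and read 5.21, 5.36 and 5.28 in EA-ADSC, 5.53, 5.09 and 5.53 in AD-MSC, and 6.19, 5.93 and 6.44 in BM-MSC.

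Within groups the markers varied to different degrees. The pooled SD within groups was 0.113 for ENG and 0.147 for CD44, and 0.765 for MCAM and 1.26 for VCAM1. The SD of ENG lay at percentile 9.82 of all probe sets, that of CD44 at 19.4 and that of MCAM at 96.2. A difference of the size seen for ENG between EA-ADSC and AD-MSC, 0.93, was thus called, while one of 1.16 for MCAM between the same groups was not.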

How the data were processed

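The authors deposited 1 table of normalised log2 intensities, 1 per probe set and array, for 9 Affymetrix arrays (3 EA-ADSC, 3 AD-MSC, 3 BM-MSC). Software listed in the submitters' processing notes was Transcriptome Analysis Console 3, Partek 6.16.0419 and Affymetrix Expression Console. Probe summarisation, normalisation and genome build were not given in the sources used here. Values were used as deposited. The platform annotation paired 16789 probe sets with a single gene symbol and 343 with several, and left 13427 unnamed. Sequences were not used here.

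Group means were fitted with limma 3.58.1 under R 4.3.3 (lmFit, eBayes) over every probe set, leaving 6 residual degrees of freedom, with two-sided moderated tests. The procedure was tested on simulated data. Genes with several probe sets were read from the brightest over the 9 arrays. All 10 markers were named. Of each partner list up to 4 called genes per comparison with the smallest adjusted p could be named, and up to 2 as values where none passed. PTPRC, CD68, PECAM1, CD34, DRA, CD74, PDGFRA, the uncalled pericyte genes and further values of named genes were chosen after their values were seen. The markers and lists were chosen with earlier results of these data known. Alternatives were quantile normalisation, median centring, a filter on dim probe sets (above the median of all values on at least 3 arrays), limma-trend, robust eBayes, array weights, the replicate number as a block, averaging the probe sets of a gene, 1 probe set per gene, a 2-fold criterion, fits to only the 2 groups compared, and omission of each array in turn. The replicate numbers were not taken to pair the samples. The labels name different horses for EA-ADSC and BM-MSC, and none for AD-MSC, so that a pairing with AD-MSC cannot be told. Residuals of arrays of different groups correlated at -0.02 to 0.12 for shared numbers and at -0.12 to 0.04 for other numbers.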

Additional observations from a re-analysis of the deposited data

How the results depend on the processing

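With 3 arrays per group the number of calls among the 10 markers was sensitive to the processing. For EA-ADSC against BM-MSC, 2 markers were called, and 4 with dim probe sets left out, array weights, averaged probe sets per gene or 1 probe set per gene, where NT5E and VCAM1 joined. With the 2-fold criterion 1 remained, in this comparison and in AD-MSC against BM-MSC, against 0.723% and 3.39% of all probe sets. Without 1 array the counts ran from 1 to 3 for EA-ADSC against BM-MSC, 2 to 4 for EA-ADSC against AD-MSC, 1 to 3 for AD-MSC against BM-MSC and 3 to 5 by the F test, for which 6 markers were called. Over all probe sets the 249 calls of EA-ADSC against BM-MSC became 86 to 384 without 1 array, 479 without dim probe sets, 744 with array weights, 499 with averaged probe sets per gene and 488 with 1 probe set per gene. Without 1 array the 2116 calls of EA-ADSC against AD-MSC became 1176 to 2037. The 1857 of AD-MSC against BM-MSC became 849 to 2012, and the 2286 of the F test 1336 to 2101. With the replicate number as a block 3 markers were called in each comparison and 4 by the F test. Of all probe sets 0.861% were called for EA-ADSC against BM-MSC, 5.32% for EA-ADSC against AD-MSC, 4.88% for AD-MSC against BM-MSC and 5.71% by the F test. In these limma fits VCAM1 was called against BM-MSC in EA-ADSC (adjusted p = 0.0141) and AD-MSC (0.0117), and NT5E was not called in AD-MSC (0.0686). Marker differences that changed sign were all uncalled. For LEPR, EA-ADSC against AD-MSC gave 0.08 with quantile normalisation and 0.03 with array weights, and AD-MSC against BM-MSC gave -0.01 with quantile normalisation. Without 1 array LEPR ran from -0.11 to 0.10 for EA-ADSC against AD-MSC and from 0.00 to 0.17 for EA-ADSC against BM-MSC. CSPG4 ran from -0.05 to 0.13 for EA-ADSC against BM-MSC and from -0.15 to 0.03 for EA-ADSC against AD-MSC. NT5E ran from -0.49 to 0.27 for EA-ADSC against AD-MSC, MCAM from -0.69 to 0.54 for EA-ADSC against BM-MSC, and NGFR from -0.08 to 0.12 for AD-MSC against BM-MSC. The dim filter removed LEPR, which has no value there. Some settings hold fewer probe sets or arrays, and the cause of these shifts was not tested.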
